A study of Mus musculus with 10 samples.

Results

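The genes described here are the nuclear genes for proteins of the mitochondrial ribosome, taken as every protein-coding gene whose symbol is Mrpl or Mrps followed by digits. The rule gave 78 genes, of which 75 had a count, among 20009 genes with a count in the series. By known position in the ribosome, 51 belong to the large subunit, including Mrps30 and Mrps18a, and 26 to the small subunit. Mrps36 was kept apart because its product is known as a subunit of the oxoglutarate dehydrogenase complex. The 5 genes of the same naming pattern annotated as pseudogenes or other non-coding genes were left out.

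The study compared the slow-twitch soleus of the calf with the fast-twitch tibialis anterior (TA) of the shin in mice, by RNA sequencing of whole tissue. The 4 groups were soleus and TA of wild-type males (3 libraries each) and soleus and TA of wild-type females (2 libraries each), with no treatment, strain or age given in the labels. A replicate number was taken as 1 mouse of its sex, which then gave a soleus and a TA library. Nothing in the labels says how many animals stand behind a number, so p-values measure the spread between these libraries.

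Mitochondria keep a ribosome of their own, which translates the few messenger RNAs of the mitochondrial genome into membrane subunits of the respiratory chain and of ATP synthase. Its ribosomal RNAs come from the mitochondrial genome, and its proteins are all encoded in the nucleus and imported. Some of these proteins have bacterial counterparts and others are found only in mitochondria. Slow oxidative fibers are known for their content of mitochondria, and fast fibers for contraction that relies more on glycolysis.

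Total counts per library ran from 726075 to 961237 on genes, and the members held 1229 to 1479 of them. All 6 slow-fiber markers, among them Myh7 and Tnni1, were higher in soleus, and 6 of 8 fast-fiber markers, among them Myh4 and Pvalb, were higher in TA (edgeR). Of the other 2, Myh2, the myosin of fast oxidative fibers, was higher in soleus (log2 fold change 1.95), and Tnnt3 did not pass. Soleus female 2 stood apart, with 15070 genes detected against at most 11858 in the other libraries. Gm20594, a gene model that took a large part of all reads, held 22.1% to 28.4% of counts in soleus and 17.2% to 20.9% in TA. In an alternative fit it was left out of the library sizes together with another gene, Cep295, and not alone. That fit called the same 1 member as the main analysis, Mrpl13.

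Sequences are shown for the pair of members on which the results turn, both for transcripts that do not encode the protein. The first set is the end of exon 2 of Mrpl13 and what follows it in 2 annotated transcripts. The retained-intron transcript reads on into the intron (ENSMUST00000170135, GRCm38 chr15:55555290-55555349, minus strand), and the coding transcript is spliced to the next exon (ENSMUST00000172387, whose bases after the junction are chr15:55548206-55548235). Capitals mark the bases after the end of exon 2.
Mrpl13 retained intron: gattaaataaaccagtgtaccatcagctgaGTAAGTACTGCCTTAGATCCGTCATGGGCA
Mrpl13 spliced: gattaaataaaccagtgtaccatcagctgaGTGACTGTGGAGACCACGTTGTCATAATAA

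The second is the 5′ part of the second exon of a non-coding transcript of Mrpl48 (ENSMUST00000127253, GRCm38 chr7:100598211-100598450, minus strand), which lies within an intron of the coding transcripts. Capitals mark 105 bases that lie in 31-base words also present in transcripts of other genes.
Mrpl48 non-coding: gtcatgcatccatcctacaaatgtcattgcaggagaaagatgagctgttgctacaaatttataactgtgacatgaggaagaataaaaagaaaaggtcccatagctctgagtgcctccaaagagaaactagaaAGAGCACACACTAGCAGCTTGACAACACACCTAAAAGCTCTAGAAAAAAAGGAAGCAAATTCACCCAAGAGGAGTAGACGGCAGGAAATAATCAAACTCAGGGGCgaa

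The mitochondrial ribosomal protein genes had near-equal summed levels in the 2 muscles. Their summed level, in counts scaled to a common library size (CPM), was 1586, 1645 and 1653 in soleus males 1 to 3 and 1713 and 1504 in soleus females 1 and 2. In TA it was 1636, 1520 and 1653 in the males and 1721 and 1451 in the females. The groups overlapped throughout, and in both muscles female 1 was the highest library and female 2 the lowest. The high rank of female 1 rested on Mrpl48, described below. Without Mrpl48, soleus male 2 (1570 CPM) and TA male 1 (1616 CPM) were highest. Female 2 was still lowest in both muscles, at 1385 CPM in soleus and 1343 in TA. With all members, the mean was 1620 ± 79.1 CPM over the soleus libraries and 1596 ± 109 CPM over those of TA (SD, n = 5 each), a log2 ratio of 0.02.

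The large-subunit sum was 1205 ± 90.5 CPM in soleus against 1169 ± 114 CPM in TA, and the small-subunit sum 409 ± 18.8 and 418 ± 25.4 (SD, 5 libraries each). Both differences were smaller than the SD of either muscle. Levels are of whole tissue, in which more or fewer cells of a type cannot be told apart from more or less RNA per cell. Endothelial markers lay at 249 to 305 CPM in soleus and 341 to 879 in TA as a sum over the list, with all 3 tested (Kdr, Cdh5 and Flt1) higher in TA. Of the pericyte and smooth muscle markers 2 of 3 tested (Notch3 and Rgs5) were higher in TA, and their list summed to 398 to 641 CPM in soleus and 585 to 1164 in TA. Markers of adipocytes summed to 16.0 to 29.5 CPM in soleus and 2.01 to 6.98 in TA, with both tested (Cidea and Adipoq) higher in soleus. Those of tendon cells summed to 274 to 1016 and 154 to 683 CPM, with 1 of 5 (Comp) higher in soleus. The part of these cells in the members' levels was not tested.

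**Figure D1:**
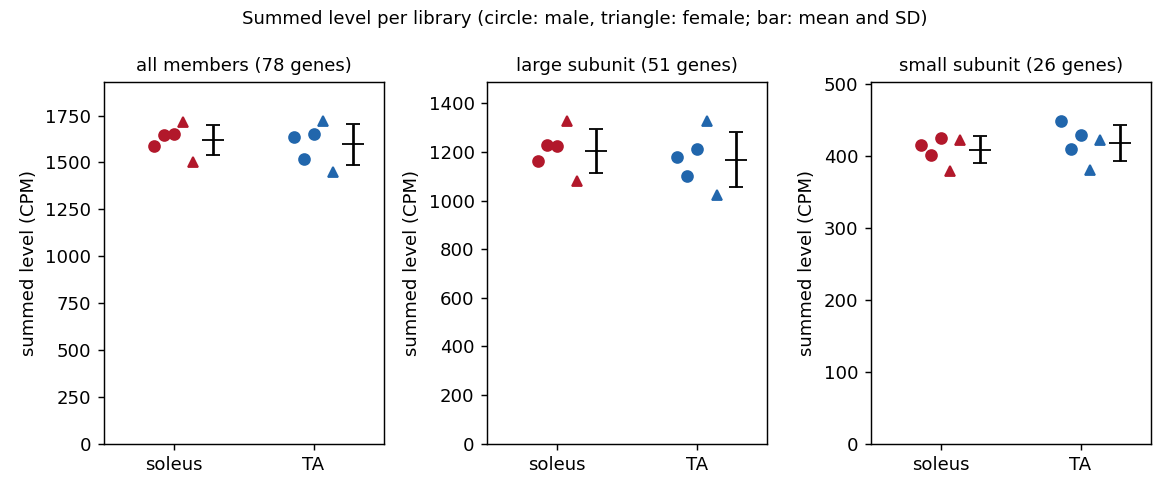
Summed level in CPM of all 78 members, of the 51 large-subunit genes and of the 26 small-subunit genes, by muscle; each point is 1 library and bars give mean and SD of 5 libraries. Soleus and TA overlap in each panel, and the axes start at 0.

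Member by member, 42 of the 78 had enough counts to be tested, together with 5115 genes in all. Of these 42, 1 passed an adjusted p of 0.05 (edgeR quasi-likelihood test), Mrpl13, which was higher in soleus. That is 2.38% of the tested members, whereas 22.0% of all tested genes passed, 11.0% in each direction. At an unadjusted p under 0.05 the counts were 3 members and 33.7% of all genes. In 1 of 42 members, Mrpl11, the 5 soleus and 5 TA libraries did not overlap, against 15.1% of all tested genes.

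The directions were even, with 20 members above 0 and 22 below. The median log2 fold change of soleus over TA was -0.01 over the tested members and 0.01 over all tested genes. The median absolute log2 fold change was 0.21 over the members and 0.39 over all tested genes. The 95% interval of the fold change lay within 2-fold in either direction for 33 of 42 members (78.6%) and for 2423 of 5115 genes (47.4%). Within 1.5-fold it lay for 13 members. For the other 9 members a 2-fold difference was not outside the interval, and the standard error (SE) on the log2 scale ran from 0.15 to 0.51 over the 42.

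Of the 30 large-subunit genes with bacterial counterparts 16 were tested, with a median log2 fold change of 0.22, and 1 (Mrpl13) passed. Of the 21 large-subunit genes found only in mitochondria 13 were tested, with a median of -0.03, and none passed. In the small subunit 5 of 16 genes with bacterial counterparts were tested (median -0.03) and 7 of 10 specific to mitochondria (median 0.04), and none passed. These counts stand beside 1 member at an unadjusted p under 0.05 in the small subunit, Mrps31, and 2 in the large. Of all tested genes 22.0% passed, and 33.7% had an unadjusted p under 0.05.

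**Figure D2:**
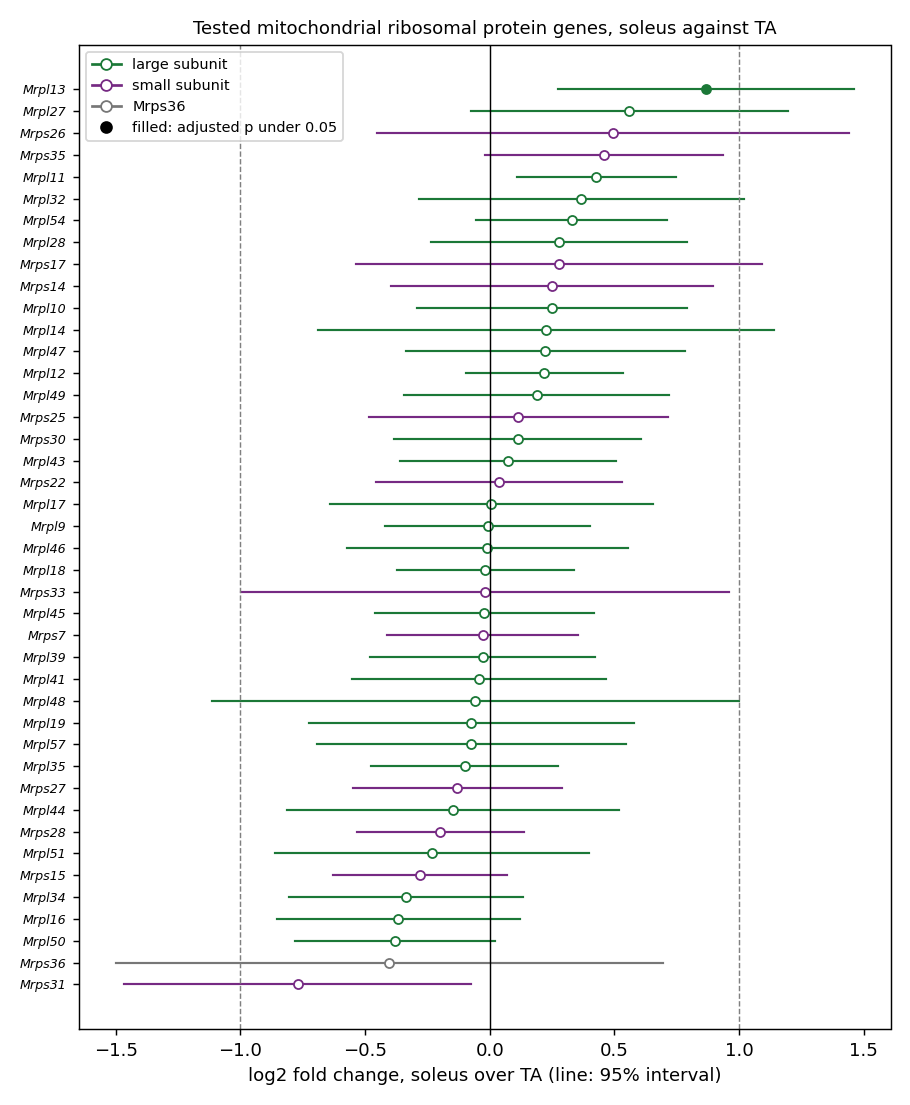
Log2 fold change of soleus over TA with its 95% interval for the 42 tested members (edgeR), coloured by subunit; the dashed lines mark a 2-fold difference. The points lie on both sides of 0 and 1 of them, Mrpl13, is filled because its adjusted p was under 0.05.

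Mrpl13 encodes a large-subunit protein with a bacterial counterpart and lies on chromosome 15 (GRCm38 55534094-55557748, minus strand). Its level was 30.4, 25.4 and 25.8 CPM in soleus males and 14.5 and 36.5 in soleus females, against 15.8, 17.4 and 16.2 in TA males and 15.1 and 9.05 in TA females. Soleus female 1 lay among the TA values, and the other 4 soleus libraries lay above all of TA. The log2 fold change was 0.87 (SE 0.27) with an adjusted p of 0.0386 (edgeR). With the mouse as a block the adjusted p was 0.0591 (edgeR), and no member passed, against 23.6% of all genes. With 1 library left out at a time the fold change stayed between 0.64 and 0.97, and the call remained in 1 of 10 such fits, the one without soleus female 1 (edgeR adjusted p 0.0152 to 0.0980).

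Of the 174 counts on Mrpl13, 98 were on the retained-intron transcript shown above and 75 on the spliced coding transcript. The retained-intron transcript had 15, 13 and 14 counts in soleus males and 6 and 26 in soleus females. It had 7, 3 and 5 counts in TA males and 5 and 4 in TA females. Scaled to library size, every soleus library lay above every TA library, but soleus female 1, at 7.91 CPM, exceeded TA male 1, at 7.89 CPM, by less than 1 count.

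With each transcript as a feature, the log2 fold change of the retained-intron transcript of Mrpl13 was 1.74 (SE 0.40), with an adjusted p of 0.00678 (edgeR). Of all tested transcripts 24.2% passed. Among those of the members, the coding transcript of Mrpl11 was the only other to pass, with an adjusted p of 0.0411 (edgeR). Without soleus female 2, the library that stood apart, the log2 fold change of the retained-intron transcript was 1.37 (SE 0.36) with an adjusted p of 0.0130 (edgeR). These fits by transcript were added after the data were seen, on the same libraries that gave the call of Mrpl13. The spliced coding transcript had 34 counts in soleus and 41 in TA, a log2 fold change of -0.12 (SE 0.34) with an adjusted p of 0.846 (edgeR). Summed over coding transcripts only, Mrpl13 had a log2 fold change of -0.070 with an adjusted p of 0.921 (edgeR). The difference in Mrpl13 therefore lay in counts on the transcript with the intron.

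Other retained-intron transcripts of the members had 93 counts in soleus and 73 in TA. Soleus female 2 had 40 of the 93 and the other soleus libraries 9 to 21, against 10 to 24 in TA. Outside that library the ranges of the 2 muscles overlapped. In all, 1.93% of the members' counts lay on retained introns and 91.1% on coding transcripts.

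**Figure D3:**
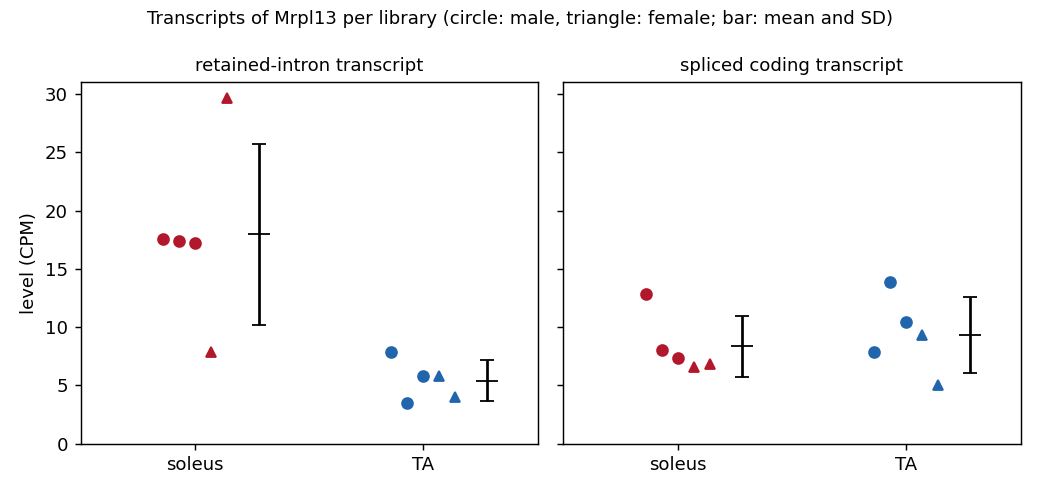
Level in CPM of the retained-intron transcript and of the spliced coding transcript of Mrpl13, by muscle; each point is 1 library and bars give mean and SD of 5 libraries. The first averages 17.9 CPM in soleus and 5.40 in TA, the second 8.34 and 9.31.

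Mrpl11, a large-subunit protein of the stalk region where translation factors bind, was the member whose libraries did not overlap. It had 65.5, 52.2 and 62.7 CPM in soleus males and 59.3 and 52.5 in soleus females. In TA it had 45.1, 38.2 and 43.9 CPM in males and 47.7 and 42.2 in females. Every soleus library was above every TA library, and soleus was the higher muscle in 5 of 5 mice. The log2 fold change was 0.43 (SE 0.15), and the adjusted p of 0.0554 missed the threshold (edgeR). All 431 counts of Mrpl11 were on 1 coding transcript. The call was made in 4 of 20 alternative fits, including the one on coding transcripts only, where the adjusted p was 0.0363 (edgeR), and the one without soleus female 2, at 0.0385 (edgeR). Over the 20 fits the adjusted p ran from 0.0363 to 0.546 (edgeR and DESeq2). In the fit by transcript, which is not among the 20, the coding transcript of Mrpl11 passed with an adjusted p of 0.0411 (edgeR). With the mouse as a block it was 0.0551 (edgeR).

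Among other tested large-subunit members not called, the largest values toward soleus beside Mrpl11 were those of Mrpl27, whose product lies near the peptidyl transferase centre, and Mrpl32. Mrpl27 had 10.5 to 18.5 CPM in soleus (median 14.7) and 6.95 to 12.8 in TA (median 9.25), a log2 fold change of 0.56 (SE 0.29). Mrpl32 had 6.59 to 13.5 CPM in soleus (median 11.7) and 6.94 to 10.1 in TA (median 9.02), 0.37 (SE 0.30). The ranges overlapped and neither passed, with adjusted p of 0.204 and 0.440 (edgeR). Mrpl27 shares 35.5% of its 31-base words with other genes, so its counts are uncertain.

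Toward TA, Mrpl50, Mrpl16 and Mrpl34 had the largest values of the tested large-subunit members. Mrpl50 had 44.8 to 64.2 CPM in soleus and 50.7 to 85.7 in TA, a log2 fold change of -0.38 (SE 0.18) with an adjusted p of 0.173 (edgeR). TA was above soleus in 5 of 5 mice for Mrpl50, and also for Mrpl34, at -0.34 (SE 0.22). Mrpl16 was at -0.37 (SE 0.22), with 30.3 to 60.2 CPM in soleus and 27.2 to 57.8 in TA. None of the 3 passed, and for each the ranges of the muscles overlapped.

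The large-subunit members with the most counts were Mrpl48, Mrpl12, Mrpl43 and Mrpl45. Counts can depend on transcript length and countable sequence as well as RNA level. Mrpl12, known to bind the mitochondrial RNA polymerase besides its place in the ribosome, had 102, 84.3, 83.6, 89.6 and 68.5 CPM in soleus (males 1 to 3, females 1 and 2). In TA it had 84.6, 69.5, 70.5, 77.9 and 64.4 CPM in the same mice. Soleus was higher in each of 5 mice, while the groups overlapped, with male 1 the highest and female 2 the lowest mouse in both muscles. The log2 fold change was 0.22 (SE 0.15), with an adjusted p of 0.330, and 0.301 with the mouse as a block (edgeR).

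Mrpl45, whose product lies at the exit of the peptide tunnel by the inner membrane, had a log2 fold change of -0.02 (SE 0.20), and Mrpl43 one of 0.07 (SE 0.20). Of the members with at least 20 CPM on average, Mrpl9, Mrpl46 and Mrpl18 shared with Mrpl45 the smallest differences, at -0.01 (SE 0.19), -0.01 (SE 0.26) and -0.02 (SE 0.16). The 95% interval of Mrpl18, the narrowest of these 4, ran from -0.37 to 0.34. Mrps30, a large-subunit protein in spite of its symbol, was at 0.11 (SE 0.23).

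In the small subunit, Mrps31, a protein found only in mitochondria, had the lowest fold change of the tested members. It had 14.0, 10.7 and 13.5 CPM in soleus males and 1.32 and 6.85 in soleus females. In TA it had 18.0, 22.0 and 18.5 CPM in males and 10.5 and 9.05 in females. TA was the higher muscle in 5 of 5 mice, but the male soleus libraries lay above the female TA libraries, so the groups overlapped. The log2 fold change was -0.77 (SE 0.32) and did not pass, with an adjusted p of 0.110 (edgeR).

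Mrps35 had 26.9 to 41.8 CPM in soleus and 17.3 to 33.6 in TA, a log2 fold change of 0.46 (SE 0.22) with an adjusted p of 0.165 (edgeR). Mrps26 was at 0.49 (SE 0.44) on few counts. The 4 small-subunit members with the most counts were Mrps28, Mrps7, Mrps15 and Mrps27, at -0.20 (SE 0.15), -0.03 (SE 0.18), -0.28 (SE 0.16) and -0.13 (SE 0.19). None of them passed. Mrps36, the gene kept apart, was at -0.40 (SE 0.51).

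The remaining 36 members were not tested. Of these, 33 had counts, with a median of 10 and at most 73 over all 10 libraries, and Mrps10, Mrps11 and Mrps23 had none. A count of 0 over 10 libraries allows up to 3 counts, which covers counting error only. The paralogs of the bacterial protein S18 were all in this group: Mrps18a had 28 counts in soleus and 19 in TA, Mrps18b 4 and 0, and Mrps18c 6 and 3.

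The number of counts on a member went with how much sequence it does not share with other transcripts. The measure was the number of 31-base words in a gene's coding transcripts that occur in no other annotated transcript. The 16 members with 100 or fewer such words had a median of 7.5 counts over all libraries. The 21 members with more than 100 and up to 500 had a median of 35, and the 41 with more than that a median of 206. At least 1 count was found for 15 of the 16, 19 of the 21 and all of the 41. Of all member transcripts, 181 had more than 100 words of their own and held 95.3% of the members' counts. The 37 transcripts with none held 378 counts, of which 377 were on 1 coding transcript of Mrpl28, an exception to this pattern.

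Of the members without counts, Mrps10 has 60 such words over its coding transcripts, Mrps11 194 and Mrps23 255. Mrpl53, with 1 count, has none, since all 665 words of its coding transcript also occur in other genes. A low count of a member cannot be read as a low RNA level, and levels of different members were not ranked. Mrps16 went against the pattern in the other direction, with 13 counts and 2073 words. Mrpl1 likewise had 2 counts and 806 words, Mrpl30 26 counts and 1879 words, and Mrpl15 26 counts and 1899 words.

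**Figure D4:**
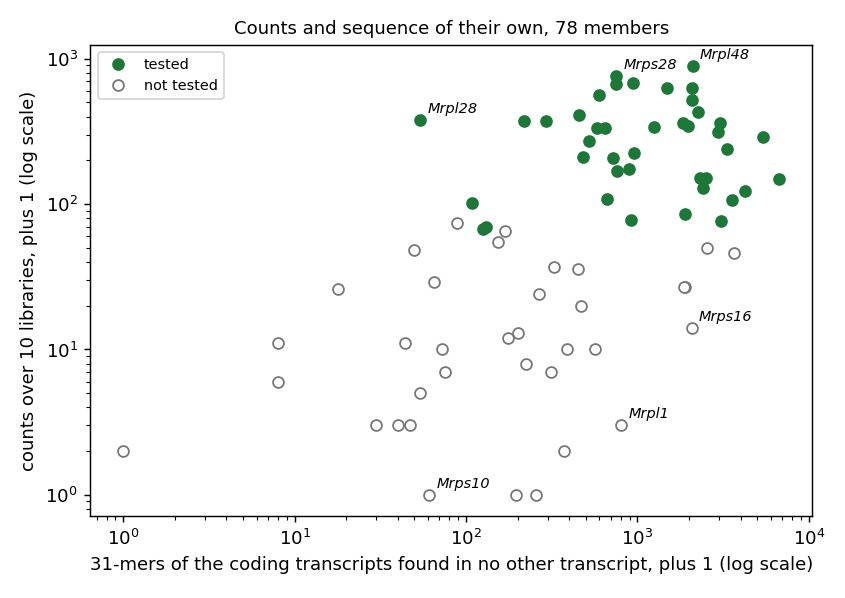
Counts of each of the 78 members summed over 10 libraries against the number of 31-base words of its coding transcripts found in no other transcript, both plus 1 on log axes; filled points are the 42 tested members. Members with few words of their own have few counts, with Mrpl28 above the others of its range. Some members with many words, among them Mrpl1 and Mrps16, also have few counts.

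Males and females were compared within each muscle. In soleus 0 of 42 members passed, against 0.547% of all tested genes, and in TA 0 of 42 passed, against 0.645% (edgeR). At an unadjusted p under 0.05 there was 1 member in each muscle, Mrps31 both times, against 16.5% of all genes in soleus and 11.7% in TA. Its log2 fold change of female over male was -1.56 (SE 0.54) in soleus and -0.99 (SE 0.44) in TA, with adjusted p of 0.177 and 0.420 (edgeR). The soleus and TA libraries of a mouse share the animal, so the 2 values are not independent. For the interaction of muscle and sex 0 members and 0% of all genes passed, and 2 members, Mrps27 and Mrpl43, and 6.86% of all genes had an unadjusted p under 0.05 (edgeR).

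Levels also differed between mice of 1 sex for a single member, Mrpl48, whose product is a large-subunit protein found only in mitochondria (GRCm38 chromosome 7, 100545751-100608301, minus strand). The pattern was noticed in the counts and then tested on the same libraries. Mrpl48 had 17.5, 74.9 and 120 CPM in soleus of males 1, 2 and 3 and 20.3, 52.1 and 140 in TA of the same mice. In females 1 and 2 it had 179 and 119 CPM in soleus and 220 and 108 in TA. Male 1 was lowest and female 1 highest in both muscles, and the muscles of 1 mouse lay close together. Between muscles Mrpl48 did not pass (log2 fold change -0.06, SE 0.49, edgeR adjusted p 0.955).

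Over both muscles, the highest male mean of Mrpl48 was 6.88-fold the lowest, against a median of 1.31-fold and a maximum of 2.68-fold over the other tested members. Between the 2 females the ratio was 1.76-fold, against a median of 1.34-fold and a maximum of 4.98-fold, so the spread of Mrpl48 was larger than that of the other tested members in males and not in females. A test of differences between mice within sex gave F = 34.4 and an adjusted p of 0.00187 for Mrpl48, rank 15 of 5115 genes (edgeR). It was the only call among 42 members (2.38%), against 1.06% of all genes, and at an unadjusted p under 0.05 the only member too, against 10.4% of all genes. The next smallest adjusted p among members was 0.479, for Mrpl44 (edgeR). Of the tested markers of connective tissue (fibro-adipogenic) cells, 2 of 5 also passed the test between mice, the collagen genes Col1a1 and Col3a1. Of those of tendon cells 1 of 5 passed, Tnmd. The other tested markers of these lists did not pass, and the part of such cells in the Mrpl48 values was not tested.

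Of the 889 counts on Mrpl48, 857 were on the non-coding transcript of which part is printed above, and 32 on coding transcripts. The non-coding transcript had 15, 52 and 96 counts in soleus and 13, 45 and 115 in TA of males 1 to 3. It had 134 and 98 counts in soleus and 185 and 104 in TA of females 1 and 2. Male 1 was lowest and female 1 highest in both muscles, as for the whole gene. The transcript passed the test between mice with an adjusted p of 0.00116, against 1.02% of all tested transcripts (edgeR). The coding transcripts had 0 to 6 counts in each library, too few to be tested.

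The non-coding Mrpl48 transcript is 706 bases long, and 276 of its 676 words of 31 bases (40.8%) also occur in transcripts of 79 other genes. Of these genes 35 were tested and 6 passed the test between mice (17.1%), against 1.06% of all genes. They were picked for sequence shared with this transcript, so they may count the same reads and are not independent of it. Reads of such shared sequence could have come from any of these genes, so the values of Mrpl48 are uncertain as a level of its messenger RNA. Without Mrpl48 the summed level of the members was 1518 ± 76.4 CPM over soleus libraries and 1488 ± 98.2 CPM over TA libraries (SD, n = 5).

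**Figure D5:**
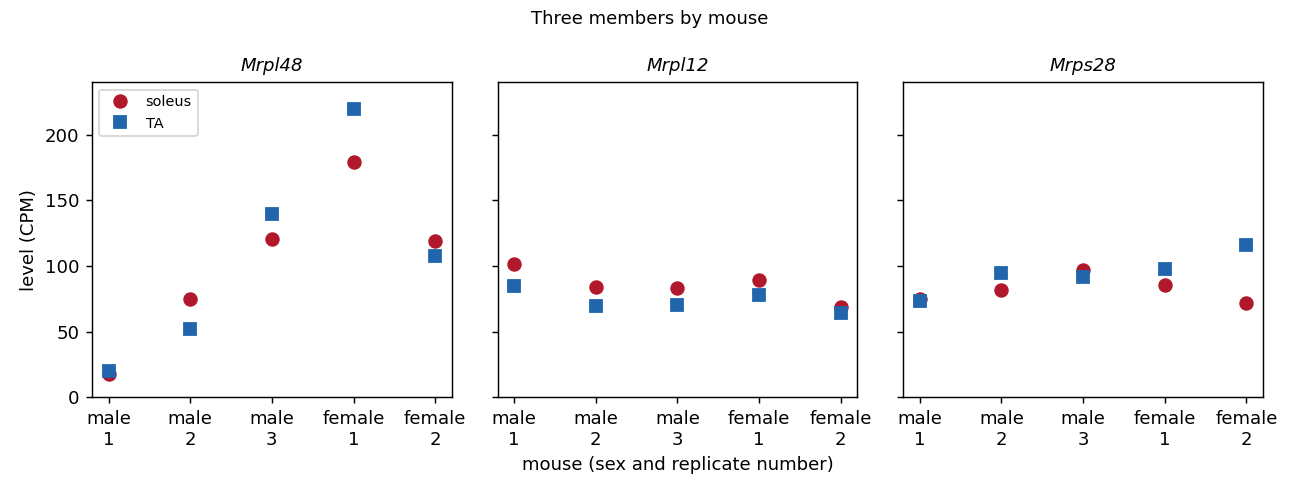
Level in CPM of Mrpl48, Mrpl12 and Mrps28 in soleus (circles) and TA (squares) of each of 5 mice. Mrpl48 ranges from 17.5 to 220 CPM with both muscles of a mouse close together, while Mrpl12 and Mrps28 stay between 64.4 and 116 CPM.

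A further 5 ribosomal proteins of mitochondria have symbols outside the pattern (Dap3, Ptcd3, Chchd1, Aurkaip1 and Gadd45gip1). Of these 3 were tested and none passed between muscles, against 22.0% of all tested genes. Ptcd3, a small-subunit protein that binds RNA, passed between mice with an adjusted p of 0.00200 (edgeR), against 1.06% of all genes. It ran from 7.02 CPM in soleus of male 1 to 362 in soleus of female 1. Which transcripts of Ptcd3 held the counts, and how much sequence they share with other genes, was not looked at.

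Other steps of mitochondrial gene expression were read beside the ribosome from fixed lists. None of 5 translation factors, 11 assembly and RNA modification factors, or 4 transcription and messenger RNA factors tested passed between muscles. Of 6 genes for charging transfer RNAs, 1 passed, Gatb, a subunit of the enzyme that makes glutaminyl-tRNA, which was lower in soleus (log2 fold change -1.42, SE 0.46, edgeR adjusted p 0.0431). Of the 12 tested messenger RNAs that this ribosome translates, 1 passed, mt-Nd1, a complex I subunit, lower in soleus at -0.49 (SE 0.13, edgeR adjusted p 0.0199), and 2 passed with the mouse as a block. The median over the 12 was -0.26. Beside these short lists, 22.0% of all tested genes passed, and 23.6% with the mouse as a block.

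The nuclear genes for respiratory chain subunits, which assemble with the products of this ribosome, had 4 members higher in soleus and 1 higher in TA of 51 tested (9.80%), with a median log2 fold change of 0.06. Those higher in soleus included Cox8a at 0.75 (SE 0.16) and Ndufb3 at 0.65 (SE 0.14). The proteins of the cytosolic ribosome had 4 higher in soleus and 1 higher in TA of 37 tested (13.5%), with a median of 0.27. Beside both lists, 22.0% of all tested genes passed. The summed level of the cytosolic ribosomal proteins was 3892 to 5117 CPM in soleus and 3005 to 3978 in TA, with overlap. That of the mitochondrial ribosomal proteins was 1504 to 1713 and 1451 to 1721. Rpl39 at 0.71 (SE 0.15) and Rplp0 at 0.49 (SE 0.15) were higher in soleus. The difference between the 2 kinds of ribosome was not tested.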

How the data were processed

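The 10 files that the authors deposited, 1 per library, list raw counts of reads for Ensembl transcripts. Per the labels, 10 ng of total RNA entered a preparation called Tag-Seq, with a Takara SMART-Seq Stranded protocol. The submitters' processing notes name bcl2fastq, Trimmomatic 0.32, FastQC and GRCm38.p4. For the aligner and counter, the tool is not given in the sources used here. Molecular identifiers are not mentioned, so reads cannot be taken as independent molecules.

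Transcripts were matched to GENCODE M21 (40359 of 40414) and summed to genes. Low genes were removed with filterByExpr on the 4 groups, and TMM scaling was applied, in edgeR 4.0.16 (R 4.3.3, limma 3.58.1). Muscle was tested by quasi-likelihood F test in a model that also held sex, and sex and interaction in a model of group means. Differences between mice of 1 sex were tested with mouse terms beside sex and muscle. P-values were Benjamini-Hochberg adjusted over all tested genes, with a threshold of 0.05. Python 3.11.15 handled tables and plots. The methods were tested on simulated data.

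Same-numbered libraries of the 2 muscles correlated, after group means were removed, with r of 0.183 to 0.239 in males and 0.285 in females. Differently numbered pairs gave r of -0.156 to -0.0705 in males and -0.285 in females. With 2 females, removing the means makes their values equal but for sign, so they are 1 piece of evidence. The mouse was therefore used as a block in an alternative fit.

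The members and lists were chosen with earlier results of these data known. Named members were those called, the 5 largest uncalled in each direction, the 4 with most counts per subunit, the 4 smallest differences among members with a mean of at least 20 CPM, Mrps18a, Mrps18b, Mrps18c, Mrps30 and Mrps36. Genes of other lists were named, at most 4 each by p, where they passed. Ptcd3, Tnnt3, Mrpl28, Mrpl53, Mrpl44, Mrpl1, Mrpl15, Mrpl30, Mrps16 and the members without counts were chosen after their values were seen. Alternatives were DESeq2 1.42.0 (size factors and Wald test), upper-quartile scaling, other filters, other library sizes, coding transcripts only, males only, the block and each library left out.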

Additional observations from a re-analysis of the deposited data

Results flagged for a closer look

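Within the 5 libraries of a muscle, 4 values of the named members lay far from the other 4, of 48 groups looked at, and chance flags about 1 group in 20. Mrpl13 was at 9.05 CPM in TA female 2, with the other TA libraries at 15.1 to 17.4. Mrpl16 was at 60.2 CPM in soleus male 2, with the others at 30.3 to 35.4, and at 27.2 CPM in TA female 2, with the others at 51.2 to 57.8. Mrpl45 was at 45.7 CPM in soleus female 2, with the others at 76.3 to 85.7.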

How the results depend on the processing

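The number of members called between muscles was 1 in the main analysis. It was 2 (Mrpl11 and Mrpl13) with DESeq2 size factors and 2 with library sizes without mitochondrially encoded genes, and 0 without a filter on low counts, 0 in males only and 0 with the mouse as a replicate block. With each library left out it was 0 to 1. All genes called between muscles numbered 1126 in the main analysis and 892 to 1364 over the alternatives, with 4091 to 20009 genes tested. On coding transcripts only the log2 fold change of Mrpl13 turned to -0.070, and the 1 call was Mrpl11. Over all alternatives the median log2 fold change of the members lay between -0.05 and 0.09, and the log2 ratio of summed levels between -0.03 and 0.08. The other 21 named members stayed uncalled in 414 of 414 alternative fits. In soleus 1 member was called for sex without a filter (Mrpl48), beside 449 of all 20009 genes. With 1 male library left out no member was called for sex in soleus. Leaving out a female library leaves 1 female of that muscle, so calls of such fits are not given. In TA 1 member was called for sex without a filter (Mrpl48), beside 240 of all 20009 genes. The test between mice and its alternatives were added after seeing the data; Mrpl48 passed in 14 of 15, and on coding transcripts only, where Mrpl48 had too few counts to be tested, the count was 0. The 36 members not tested had too few counts for a comparison at this depth.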

Other observations

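Promoters of 69 of the 78 members were found in RefSeq (GRCm38.p6), from 250 bases before to 50 after the start of the gene. The letters CCGGAAG, the core bound by ETS-family factors such as GABP, occurred on either strand in 26 of the 69 (37.7%), against 9.93% of the promoters of all 27025 symbols and 18.0% of those of 3761 other protein-coding genes tested here. AAGATGG, from the core of the YY1 motif, occurred in 13 (18.8%), against 7.28% of all and 8.30% of the tested coding genes. GCGCATG, from the NRF1 motif, occurred in 8 (11.6%), against 4.41% and 7.39%. TATAAA occurred in 5 (7.25%), against 15.7% and 9.49%. These are matches of letters, and binding was not measured.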
